A study of Rattus norvegicus with 10 samples.

Results

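The comparison set kidneys of rats fed menhaden fish oil against kidneys of rats fed vegetable oil (corn with hydrogenated oils, called corn oil in the labels), with both choline supplies pooled. All arrays whose labels do not carry the word necrotic were taken, 8 of the 10 arrays of the series. The 4 fish oil arrays were 2 of choline-deficient and 2 of choline-supplemented kidneys, and the 4 corn oil arrays were likewise 2 of choline-deficient and 2 of choline-supplemented kidneys. The 2 arrays labelled necrotic, from the choline-deficient corn oil diet, were left out. All animals were male weanling Wistar rats killed after 6 days on the diet, and each array held total RNA of 1 pool of 3 animals. Because the labels divide the deficient corn oil animals by necrosis, the deficient corn oil pools here are the remaining animals of that diet. How animals were sorted is not stated, and no such division is given for the other diets. The menhaden diets replaced the whole vegetable fat, so the difference is between 2 fats and not the effect of adding n-3 fatty acids alone.

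Fish oil is rich in long n-3 polyunsaturated fatty acids, which are ligands of the nuclear receptor PPAR alpha and restrain SREBP-1, the factor that drives fatty acid synthesis and desaturation. Their oxidation products can modify KEAP1 and so free NRF2, a factor that acts through the antioxidant response element on genes of quinone reduction, glutathione conjugation and drug export. PPAR alpha in the proximal tubule drives peroxisomal and mitochondrial fatty acid oxidation, on which that segment relies for energy. In weanling rats, lack of choline brings on acute tubular necrosis within days, and the series' title names protection by fish oil as its subject.

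Values are log2 intensities, and a difference of 1 is a 2-fold difference. For single genes the 4 fish oil values are given in the order deficient pool 1, deficient pool 2, supplemented pool 1 and supplemented pool 2, and the 4 corn oil values in the same order. Differences are fish oil minus corn oil on the log2 scale with their moderated standard error, 4 pools a side, and "rose", "fell" and "called" refer to an adjusted p under 0.05 over all 29214 probe sets. Array medians lay between 7.28 and 7.30 in the fish oil pools and between 7.28 and 7.41 in the corn oil pools. Proximal tubule markers were at a high level throughout, with Slc34a1, the sodium-phosphate cotransporter, between 13.84 and 13.88 in the fish oil pools and between 13.69 and 14.03 in the corn oil pools. With so few arrays every difference is imprecise, and p-values measure the spread between pools, not between single animals. On the first principal component (31.1% of the variance) the 4 fish oil arrays lay between -22.4 and -9.3, the deficient corn oil arrays at 24.6 and 48.1, and the supplemented corn oil arrays at -2.7 and -6.4. On the second (22.7%) the fish oil arrays lay between 3.5 and 21.9, the deficient corn oil arrays at -6.3 and 15.1, and the supplemented corn oil arrays at -27.8 and -32.7. The corn oil pools thus differed by choline supply more than the fish oil pools did on both components. Between the 2 pools of a group, 271 probe sets differed 2-fold or more in the deficient fish oil, 473 in the supplemented fish oil, 488 in the deficient corn oil and 166 in the supplemented corn oil kidneys.

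Genes that rose under fish oil included 3 of 18 glucuronidation and sulfation genes, 6 of 28 NRF2 targets, 5 of 20 glutathione transferases, 3 of 13 ABC and MATE exporters, and 5 of 24 peroxisomal and 8 of 24 mitochondrial fatty acid oxidation genes. Genes that fell included 15 of 44 of the cell cycle and 3 of 22 of fatty acid synthesis and desaturation. Of 29214 probe sets 329 were called (1.13%), 96 higher (0.329%) and 233 lower (0.798%). Of these, 32 were higher and 64 lower by 2-fold or more. In all, 3836 probe sets had an unadjusted p under 0.05. The 4 fish oil arrays lay wholly above the 4 corn oil arrays at 1052 probe sets (3.6% of all) and wholly below at 1447 (4.95%), together 2499 (8.55%). After centring each array on its median these numbers were 1594 above and 1100 below, so which side was larger depended on the scaling. Among called probe sets 95 of the 96 higher and 228 of the 233 lower had no overlap. Of the 329, 231 carried 1 gene symbol, for 219 genes, and 98 stayed unnamed. With 1 probe set a gene, 73 of 14506 genes rose (0.503%) and 146 fell (1.01%), and the median difference of all genes was 0.0075.

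The number of calls depended on single arrays, and it fell without any one of them except deficient corn oil pool 2. It was 81 without deficient fish oil pool 1, 65 without pool 2, 142 without supplemented fish oil pool 1 and 106 without pool 2. It was 145 without deficient corn oil pool 1, 366 without pool 2, 72 without supplemented corn oil pool 1 and 61 without pool 2. Without the choline covariate it was 253. Of 73 named probe sets that were called, 23 kept their call without any single array, those of Ugt2b7, Csmd1, Nqo1, Pir, Abcc2, Creb3l3, Gsta3, Abcc4, Cldn17, Gstp1, Scd, Pclaf, Acaa1b, Ehhadh, Acsl1, Eci1, Pdk4, Vnn1, Ephx1, Gstm1 and Slc17a3. The other 50 lost it without at least 1 array, and none of the 73 changed sign.

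**Figure D1:**
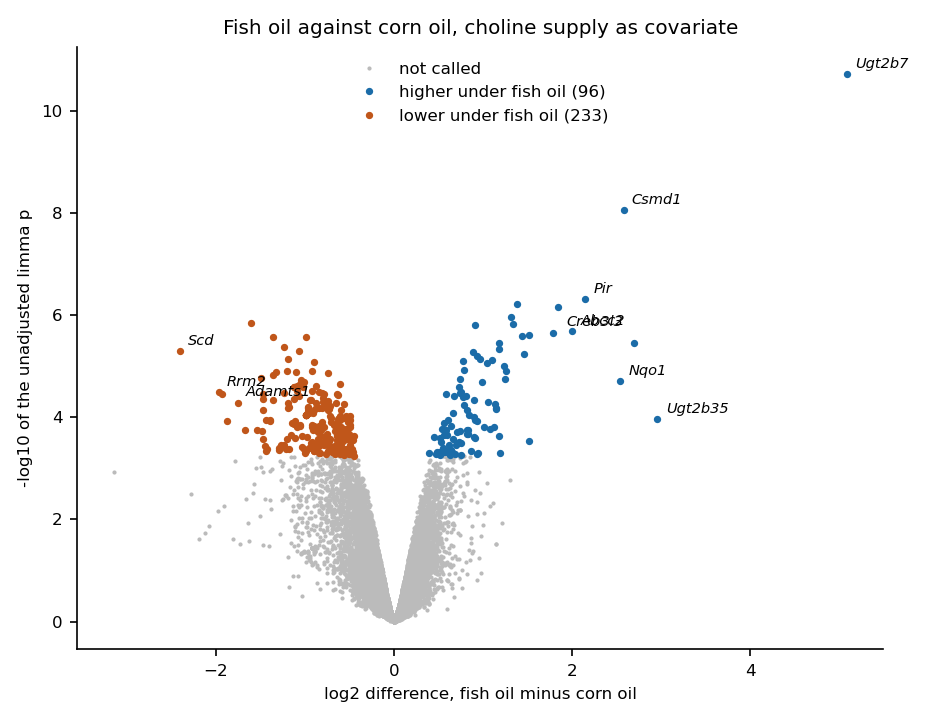
Every probe set by its log2 difference, fish oil minus corn oil (x axis), and the -log10 of its unadjusted limma p (y axis), with 4 pools a side and choline supply as covariate. Blue points are the 96 called higher and orange points the 233 called lower under fish oil. Ugt2b7 stands far to the right at 5.08, and Scd is the leftmost of the called points at -2.41.

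The sequences below are promoter windows of 5 genes that moved with the oil, 3 detoxification genes that rose and 2 replication genes that fell, shown because they hold a motif known for each family, that of NRF2 in the first and of E2F, the factors of S-phase genes, in the second. They are windows of 300 bases around the annotated start (RefSeq, GRCr8), written 5′ to 3′ on the gene's strand, and capitals mark the motif match. In the first 3 windows, Abcc2 (chr1:252613625-252613924, plus strand), Gsta3 (chr9:31154739-31155038, plus strand) and Gstp1 (chr1:210769656-210769955, minus strand), the capitals are the antioxidant response element core TGACNNNGC.
Abcc2: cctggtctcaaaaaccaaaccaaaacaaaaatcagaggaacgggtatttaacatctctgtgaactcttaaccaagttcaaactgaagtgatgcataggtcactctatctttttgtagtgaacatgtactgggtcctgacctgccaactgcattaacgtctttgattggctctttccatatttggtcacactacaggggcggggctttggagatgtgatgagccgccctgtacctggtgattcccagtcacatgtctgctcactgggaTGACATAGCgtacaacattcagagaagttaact
Gsta3: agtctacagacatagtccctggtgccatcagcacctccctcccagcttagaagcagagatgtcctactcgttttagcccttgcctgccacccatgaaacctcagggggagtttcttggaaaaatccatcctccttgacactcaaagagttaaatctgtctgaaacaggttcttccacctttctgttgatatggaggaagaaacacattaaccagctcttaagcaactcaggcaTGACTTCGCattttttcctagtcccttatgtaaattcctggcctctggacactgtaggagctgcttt
Gstp1: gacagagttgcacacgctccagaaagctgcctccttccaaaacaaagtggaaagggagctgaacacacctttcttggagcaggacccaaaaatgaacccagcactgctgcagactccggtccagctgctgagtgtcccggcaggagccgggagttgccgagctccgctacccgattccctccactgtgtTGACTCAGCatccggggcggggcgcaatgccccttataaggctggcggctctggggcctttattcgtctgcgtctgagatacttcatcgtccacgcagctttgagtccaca
The cores read TGACATAGC, TGACTTCGC and TGACTCAGC and start at position 18, -17 and -61 from the start site in Abcc2, Gsta3 and Gstp1, in that order. Searched on both strands, TGACNNNGC was in a window (any, where a gene has several) of 7 of the 16 genes called higher in the NRF2, glutathione, glucuronidation and export lists that had one (43.8%), namely Abcc2, Ephx1, Gsta1, Gsta3, Gstp1, Txnrd1 and Ugdh. It was in 13 of all 52 genes called higher with a window (25%), in 18 of 122 called lower (14.8%) and in 3602 of all 27457 genes (13.1%). The same core was also in the window of Scd, which fell. A match is a description and not a binding site.

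In the windows of Mcm5 (chr19:13488563-13488862, plus strand) and Mcm6 (chr13:42404303-42404602, minus strand), subunits of the replicative helicase, capitals mark the E2F motifs TTTCCCGC and TTTGGCGC, read on either strand.
Mcm5: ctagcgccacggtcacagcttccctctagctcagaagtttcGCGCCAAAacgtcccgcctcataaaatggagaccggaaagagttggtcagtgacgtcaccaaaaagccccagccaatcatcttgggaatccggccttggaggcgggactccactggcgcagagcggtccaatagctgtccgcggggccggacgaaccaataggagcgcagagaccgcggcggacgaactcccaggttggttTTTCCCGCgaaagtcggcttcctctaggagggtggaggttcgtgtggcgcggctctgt
Mcm6: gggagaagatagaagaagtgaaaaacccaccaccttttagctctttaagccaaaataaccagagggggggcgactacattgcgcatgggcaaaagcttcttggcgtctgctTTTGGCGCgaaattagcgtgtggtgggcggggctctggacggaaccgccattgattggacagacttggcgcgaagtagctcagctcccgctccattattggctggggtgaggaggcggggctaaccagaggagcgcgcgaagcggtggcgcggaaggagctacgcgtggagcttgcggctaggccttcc
TTTCCCGC was in 1 and TTTGGCGC in 2 of the 11 cell cycle genes called lower that had a window, against 299 (1.09%) and 152 (0.554%) of all 27457 genes. Over all 122 genes called lower with a window they were in 7 (5.74%) and 4 (3.28%). The strict PPAR response element, a direct repeat with 1 base between, was in 0 of the 12 called fatty acid oxidation and PPAR alpha genes with a window and in 17 of all 27457 genes (0.0619%).

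The difference that stood farthest from the spread between pools was that of a UDP-glucuronosyltransferase, an enzyme class that couples glucuronic acid to steroids, bile acids, fatty acids and drugs for excretion. Ugt2b7 (probe set 10771978) was at 10.63, 10.74, 11.52 and 11.23 in the fish oil pools, against 5.77, 5.72, 6.32 and 6.00 in the corn oil pools. Every fish oil pool lay more than 4 log2 units above every corn oil pool, and the pools of each oil were within 1 unit of each other. The difference was 5.08 ± 0.11 (adjusted p = 5.72e-07), or 33.8-fold. Ugt2b35, a paralog, was at 11.32, 11.58, 12.93 and 11.66 in the fish oil pools, against 9.06, 7.20, 10.13 and 9.27 in the corn oil pools. It rose by 2.96 ± 0.44 (adjusted p = 0.0238), with the deficient corn oil pools 9.06 and 7.20 far apart. Ugdh, which makes the UDP-glucuronic acid that these enzymes use, was at 11.68, 11.80, 11.79 and 12.05 in the fish oil pools, against 10.81, 11.30, 11.01 and 10.89 in the corn oil pools, and it rose by 0.82 ± 0.13 (adjusted p = 0.0297).

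Of 18 glucuronidation and sulfation genes measured, these 3 rose and 0 fell, and the list's median difference was 0.19, against 0.0075 for all genes. Without 1 array the number of calls was 1 to 3. Ugt2b1, of the same family, had a difference of -0.14 ± 0.23 (adjusted p = 0.845) and Sult1a1, a phenol sulfotransferase, one of 0.82 ± 0.17 (adjusted p = 0.0725). Probe sets of close paralogs can share hybridisation, in the Ugt2b as in the Gsta and Gstm families, and its part in these values was not tested.

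Genes of quinone and epoxide detoxification rose as well. Nqo1 (probe set 10810867), the quinone reductase long used as a readout of NRF2, was at 10.57, 10.90, 11.53 and 11.12 in the fish oil pools, against 9.21, 8.65, 8.29 and 7.82 in the corn oil pools. All fish oil pools were above all corn oil pools, and the supplemented corn oil pools were the lowest. The difference was 2.53 ± 0.30 (adjusted p = 0.0131), or 5.79-fold, with 1.81 in the deficient and 3.26 in the supplemented supply. Pir, a nuclear iron-binding protein and known NRF2 target, was at 9.81, 10.21, 10.38 and 10.26 in the fish oil pools, against 8.34, 7.66, 8.02 and 8.04 in the corn oil pools and rose by 2.15 ± 0.16 (adjusted p = 0.00411). Ephx1, microsomal epoxide hydrolase, was at 13.42, 13.54, 13.78 and 13.63 in the fish oil pools, against 12.57, 12.06, 12.53 and 12.51 in the corn oil pools and rose by 1.18 ± 0.12 (adjusted p = 0.00714).

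Of 28 NRF2 targets on the list 6 rose and 0 fell (0.503% of all genes rose), 26 had a positive difference, and the median was 0.39. Without 1 array 2 to 5 of them were called. Besides Nqo1 and Ephx1, Txnrd1, the cytosolic thioredoxin reductase, rose by 0.92 ± 0.14 (adjusted p = 0.0249) and Akr7a3, an aflatoxin aldehyde reductase, by 0.90 ± 0.14 (adjusted p = 0.0245). Tkt, transketolase of the pentose phosphate pathway, rose by 0.54 ± 0.08 (adjusted p = 0.0292) and Osgin1, an oxidative stress induced growth inhibitor, by 0.58 ± 0.11 (adjusted p = 0.0455). Several known NRF2 targets did not pass the test. Gclc, the catalytic subunit of glutathione synthesis, was at 13.79, 13.87, 13.87 and 13.77 in the fish oil pools, against 13.85, 13.47, 13.80 and 13.79 in the corn oil pools, with overlapping groups and a difference of 0.10 ± 0.10 (adjusted p = 0.722). Srxn1, which reduces oxidised peroxiredoxins, had 1.05 ± 0.24 (adjusted p = 0.0877), Hmox1, which degrades heme, 0.76 ± 0.57 (adjusted p = 0.612), and Slc7a11, the cystine carrier, -0.47 ± 0.39 (adjusted p = 0.654). Among 25 antioxidant enzymes (superoxide dismutases, peroxiredoxins, glutathione peroxidases and metallothioneins) 0 were called in either direction, and the median was 0.03.

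Glutathione transferases, which couple glutathione to reactive electrophiles, rose in the alpha, mu and pi classes. Gsta3 was at 10.25, 10.56, 10.78 and 10.58 in the fish oil pools, against 8.94, 8.20, 9.03 and 8.88 in the corn oil pools. Gstp1 was at 13.59, 13.73, 13.76 and 13.67 in the fish oil pools, against 12.53, 12.53, 12.02 and 11.92 in the corn oil pools. In both, the groups lay more than 1 unit apart, with the deficient corn oil pools of Gsta3 unlike each other (8.94 and 8.20). Gsta3 rose by 1.78 ± 0.16 (adjusted p = 0.00526) and Gstp1 by 1.44 ± 0.13 (adjusted p = 0.00526), and their promoter windows are printed above. Gstm1, of the mu class, rose by 1.24 ± 0.15 (adjusted p = 0.0123), Gsta1 by 0.87 ± 0.16 (adjusted p = 0.0453) and Mgst1, the microsomal form, by 0.58 ± 0.07 (adjusted p = 0.0150). Of the 20 transferases and related enzymes measured these 5 rose and 0 fell, with a median of 0.38 and 17 positive differences. Leaving out 1 array gave 3 to 7 calls.

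Efflux pumps that carry glucuronide and glutathione conjugates out of cells rose as well. Abcc2, MRP2 of the proximal tubule brush border, was at 11.79, 12.05, 12.24 and 12.37 in the fish oil pools, against 10.28, 10.45, 9.78 and 9.94 in the corn oil pools. The fish oil pools lay close together and more than 1 unit above every corn oil pool. Abcc2 rose by 2.00 ± 0.18 (adjusted p = 0.00526), or 4.00-fold. Abcc4 (MRP4, which also exports cyclic nucleotides and prostaglandins) was measured by 3 probe sets, and the differences were 1.51 ± 0.14, 1.38 ± 0.11 and 1.32 ± 0.11. The first of these read 11.99, 12.31, 12.00 and 12.30 in the fish oil pools, against 10.90, 10.36, 10.64 and 10.66 in the corn oil pools. Abcc3 (MRP3) rose by 0.63 ± 0.12 (adjusted p = 0.0498). These were the 3 of 13 measured ABC and MATE exporters that passed, with 0 lower and a list median of -0.02. Without 1 array 2 of them were called, and Abcc3 kept its call in none of the 8 settings that leave out an array.

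Of the uptake side, 1 of 18 organic anion and cation transporters was called, Slc22a12 (URAT1, the urate exchanger), which rose by 0.58 ± 0.09 (adjusted p = 0.0297). Slc17a3 and Slc17a1, apical transporters of urate and other organic anions, rose by 0.93 ± 0.10 (adjusted p = 0.00781) and 0.73 ± 0.09 (adjusted p = 0.0139). Slc17a3 read 13.13, 13.41, 13.44 and 13.32 in the fish oil pools, against 12.33, 12.18, 12.50 and 12.56 in the corn oil pools, without overlap. Among 32 drug-metabolising cytochromes P450 and partners 3 rose and 1 fell. Cyp1a1, an aryl hydrocarbon receptor target, rose by 1.12 ± 0.17 (adjusted p = 0.0274), Cyp2e1, which oxidises ethanol and fatty acids, by 0.70 ± 0.11 (adjusted p = 0.0303) and Por, the electron donor of microsomal P450s, by 0.53 ± 0.09 (adjusted p = 0.0369). Cyp1b1 fell by 0.89 ± 0.16 (adjusted p = 0.0414). No more than 1 of these 4 was called in any setting that left out 1 array.

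Fatty acid oxidation was the second group that rose, in peroxisomes and in mitochondria, with differences nearer to 1 log2 unit. Acaa1b, the peroxisomal thiolase, was at 12.19, 12.08, 12.50 and 12.20 in the fish oil pools, against 11.06, 10.72, 10.83 and 11.01 in the corn oil pools. All 4 fish oil pools were above 12 and all corn oil pools near 11. It rose by 1.34 ± 0.12 (adjusted p = 0.00506). Ehhadh, the peroxisomal bifunctional enzyme, was at 13.49, 13.38, 13.45 and 13.42 in the fish oil pools, against 12.54, 12.08, 12.44 and 12.51 in the corn oil pools. Its fish oil pools were nearly equal, no corn oil pool came near them, and it rose by 1.04 ± 0.11 (adjusted p = 0.00853). Ech1 and Eci2, auxiliary isomerases for unsaturated fatty acids, rose by 0.64 ± 0.10 (adjusted p = 0.0273) and 0.60 ± 0.11 (adjusted p = 0.0463), and Pex11a, which promotes peroxisome division, by 0.52 ± 0.09 (adjusted p = 0.0347). These were 5 of 24 peroxisomal and omega oxidation genes measured, with 0 lower, a median of 0.28 and 2 to 4 calls when 1 array was left out. Cyp4a1, the fatty acid omega hydroxylase often used to mark PPAR alpha activity in rats, had 0.70 ± 0.15 (adjusted p = 0.0789) and was not called.

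In mitochondria 8 of 24 oxidation genes rose and 0 fell, with a median of 0.42. Without 1 array 2 to 6 were called. Acsl1, which activates long fatty acids to acyl-CoA, was at 11.93, 11.97, 12.16 and 11.93 in the fish oil pools, against 11.05, 10.79, 11.07 and 11.25 in the corn oil pools and rose by 0.96 ± 0.10 (adjusted p = 0.00810). Eci1, the mitochondrial enoyl-CoA isomerase, was at 13.34, 13.27, 13.37 and 13.39 in the fish oil pools, against 12.51, 12.33, 12.44 and 12.45 in the corn oil pools. Its groups lay far apart for their narrow spread, and it rose by 0.91 ± 0.08 (adjusted p = 0.00506). Cpt2, which rebuilds acyl-CoA inside the inner membrane, rose by 0.82 ± 0.12 (adjusted p = 0.0196), Decr1, the dienoyl-CoA reductase needed for polyunsaturated chains, by 0.83 ± 0.13 (adjusted p = 0.0293) and Acaa2, the matrix thiolase, by 0.75 ± 0.09 (adjusted p = 0.0150). Slc25a20, the carnitine carrier, rose by 0.70 ± 0.12 (adjusted p = 0.0403), Acadm, the medium-chain dehydrogenase, by 0.64 ± 0.12 (adjusted p = 0.0446) and Acadl, the long-chain dehydrogenase, by 0.39 ± 0.07 (adjusted p = 0.0469). Cpt1a, the gate of the pathway, was at 12.10, 12.35, 12.29 and 12.16 in the fish oil pools, against 11.83, 11.82, 11.56 and 11.79 in the corn oil pools. No fish oil pool overlapped a corn oil pool, and with a difference of 0.47 ± 0.10 (adjusted p = 0.0688) it was not called.

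Of 18 other PPAR alpha targets 4 rose and 0 fell, with a median of 0.36 and 3 to 4 calls when 1 array was left out. Creb3l3, a membrane-bound transcription factor of fasting lipid metabolism, was at 8.99, 9.13, 9.01 and 9.31 in the fish oil pools, against 7.53, 7.32, 6.88 and 7.33 in the corn oil pools and rose by 1.84 ± 0.14 (adjusted p = 0.00411). Pdk4, the kinase that shuts pyruvate dehydrogenase, was at 11.72, 11.64, 11.18 and 11.33 in the fish oil pools, against 10.40, 10.50, 9.89 and 10.35 in the corn oil pools and rose by 1.18 ± 0.11 (adjusted p = 0.00613). Its deficient fish oil pools were the highest and there was no overlap. Vnn1, a pantetheinase of the brush border, rose by 0.89 ± 0.09 (adjusted p = 0.00718) and Slc25a34, a mitochondrial carrier, by 0.60 ± 0.09 (adjusted p = 0.0244). Angptl4, an inhibitor of lipoprotein lipase, read 10.40, 10.22, 10.11 and 9.87 in the fish oil pools, against 10.74, 10.35, 7.79 and 8.31 in the corn oil pools. The deficient corn oil pools were as high as the fish oil pools and only the supplemented corn oil pools were low. Its pooled difference, 0.86 ± 0.40 (adjusted p = 0.408), was not called. In a fit of 4 group means to all 8 arrays, the supplemented supply gave 1.95 ± 0.21 (adjusted p = 0.0244). In the same fit the deficient supply gave -0.23 ± 0.21 (adjusted p = 0.747). Fitted in limma on the supplemented arrays alone, the difference of 1.95 was not called (adjusted p = 0.0676). The test of the difference between the supplies gave -2.18 ± 0.30 (adjusted p = 0.0884).

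**Figure D2:**
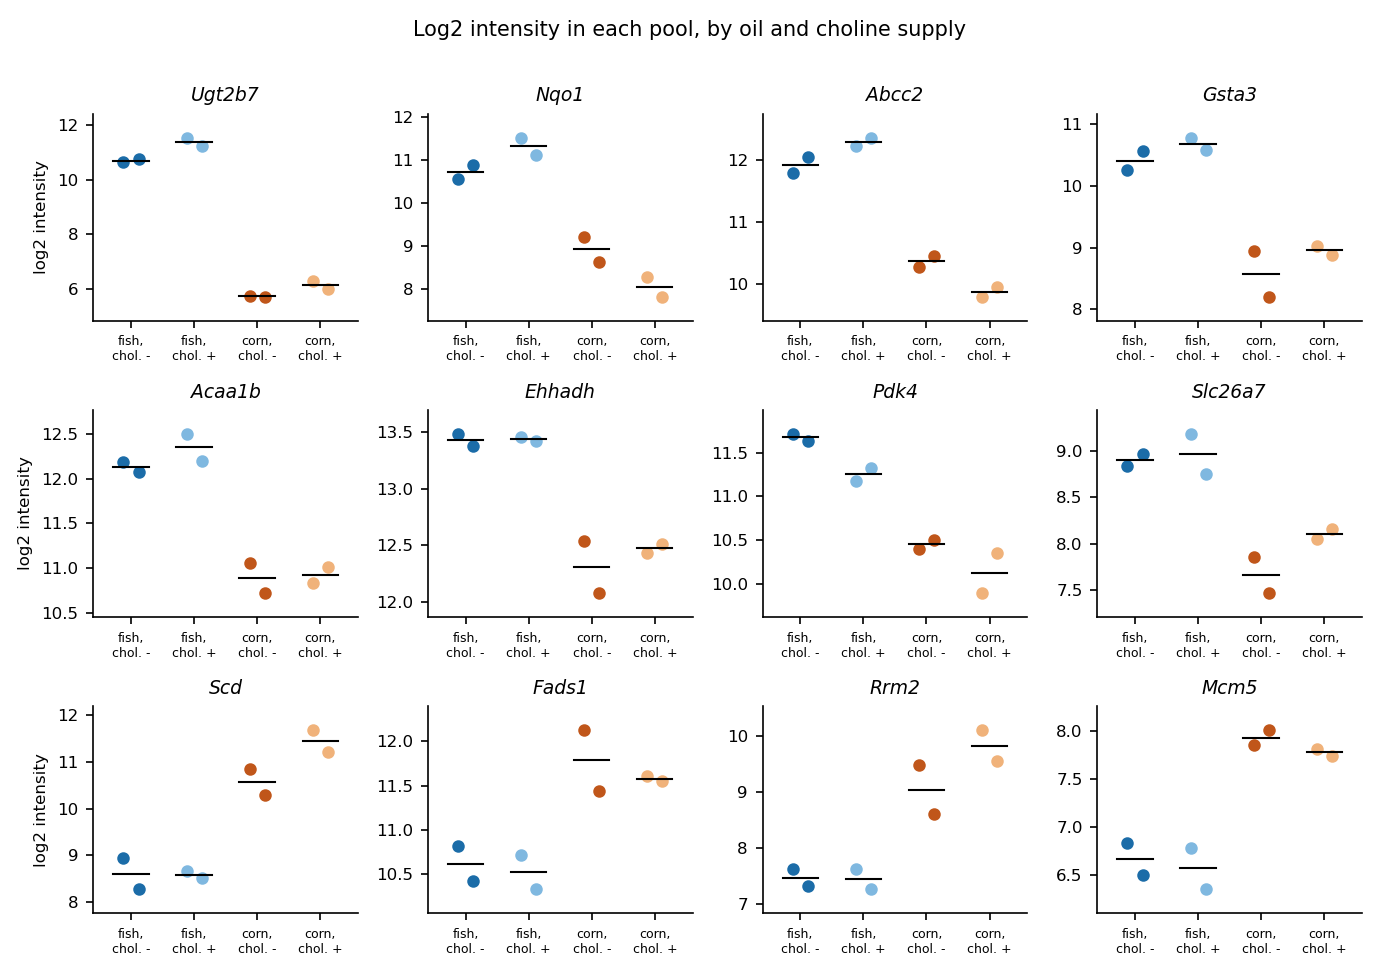
Log2 intensity (y axis, own scale per panel) in each pool for 12 genes, with the fish oil groups left of the corn oil groups and choline-deficient (chol. -) left of choline-supplemented (chol. +). Points are pools and lines the mean of 2 pools. The first 8 genes are higher and the last 4 lower in the fish oil pools, with no overlap between the oils in any panel.

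The desaturases Scd, Scd2 and Fads1 fell, and Fads2 did not pass the test. Scd (probe set 10730349), stearoyl-CoA desaturase, which makes monounsaturated fatty acids, was at 8.95, 8.27, 8.66 and 8.51 in the fish oil pools, against 10.85, 10.29, 11.68 and 11.20 in the corn oil pools. All 4 fish oil pools were below 9 and all corn oil pools above 10, and the supplemented corn oil pools were the highest. It fell by 2.41 ± 0.24 (adjusted p = 0.00716), or 5.31-fold. Fads1, the delta-5 desaturase of polyunsaturated fatty acids, read 10.82, 10.43, 10.72 and 10.33 in the fish oil pools, against 12.13, 11.44, 11.61 and 11.55 in the corn oil pools, without overlap, and fell by 1.11 ± 0.17 (adjusted p = 0.0248). Scd2, a second stearoyl-CoA desaturase, fell by 0.76 ± 0.13 (adjusted p = 0.0351).

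These 3 were the only called genes of 22 measured in the fatty acid synthesis and desaturation list, whose median was -0.03. Leaving out 1 array gave 1 to 3 falls. Fasn, fatty acid synthase, had -0.94 ± 0.18 (adjusted p = 0.0563), without overlap between the oils (the highest fish oil pool at 10.07, the lowest corn oil pool at 10.43), and was not called. Fads2, the delta-6 desaturase, read 12.34, 12.48, 12.62 and 12.36 in the fish oil pools, against 12.46, 12.11, 12.42 and 12.51 in the corn oil pools, with overlapping groups and 0.08 ± 0.11 (adjusted p = 0.809). In the cholesterol list 0 of 22 genes were called and 18 had a negative difference, with a median of -0.18. Sqle, squalene epoxidase, had -0.66 ± 0.21 (adjusted p = 0.211). Cyp7b1, the oxysterol 7-alpha-hydroxylase, was the 1 called gene among 18 LXR and cholesterol efflux genes and fell by 0.84 ± 0.11 (adjusted p = 0.0150). Among 41 eicosanoid enzymes and receptors, the route by which n-6 and n-3 fatty acids become signalling lipids, 0 were called, with a median of -0.10. Ptgs2, cyclooxygenase 2, read 9.79, 9.88, 9.77 and 9.80 in the fish oil pools, against 9.28, 8.67, 10.33 and 10.28 in the corn oil pools. Its 4 fish oil pools were alike, while the deficient corn oil pools were lower and the supplemented corn oil pools higher than them, and the pooled difference was 0.17 ± 0.27 (adjusted p = 0.826). Cyp2c23, the main renal arachidonic acid epoxygenase of the rat, had 0.16 ± 0.08 (adjusted p = 0.441).

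Genes of DNA replication and mitosis were the list with the most called falls. Rrm2, the ribonucleotide reductase subunit that limits nucleotide supply, had 2 probe sets with -1.97 ± 0.25 and -1.93 ± 0.25. The first (probe set 10883903) read 7.62, 7.32, 7.63 and 7.26 in the fish oil pools, against 9.48, 8.60, 10.10 and 9.54 in the corn oil pools. The fish oil pools were alike at both choline supplies, and both supplemented corn oil pools were above both deficient ones. Top2a, topoisomerase II alpha, was at 7.36, 7.15, 6.99 and 7.14 in the fish oil pools, against 8.72, 7.91, 9.33 and 8.87 in the corn oil pools and fell by 1.55 ± 0.25 (adjusted p = 0.0293). Cdk1, the mitotic kinase, was at 6.74, 6.41, 6.23 and 6.54 in the fish oil pools, against 7.92, 7.14, 8.63 and 7.98 in the corn oil pools and fell by 1.44 ± 0.26 (adjusted p = 0.0450). Mcm5 and Mcm6, whose promoter windows are shown above, fell by 1.24 ± 0.12 (adjusted p = 0.00693) and 1.07 ± 0.14 (adjusted p = 0.0157). Mcm5 read 6.83, 6.50, 6.79 and 6.35 in the fish oil pools, against 7.85, 8.01, 7.82 and 7.75 in the corn oil pools, and its corn oil pools were alike at both choline supplies.

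Of 44 cell cycle genes measured, 15 fell and 0 rose (1.01% of all genes fell), 42 had a negative difference, and the median was -0.82. The others called were Cdca3, Aurkb, Ccna2, Plk1, Ttk, Plk4, Kif2c, Ccne1, Ccnd2 and Mcm2, which fell by 0.62 (Mcm2) to 1.45 (Cdca3). Beyond the list, Pclaf, a PCNA partner, fell by 1.49 ± 0.17 (adjusted p = 0.0123) and Ska3, of the spindle and kinetochore complex, by 1.48 ± 0.19 (adjusted p = 0.0150). Mean levels over the 44 genes lay between 7.31 and 7.42 in the fish oil pools, at 7.76 and 8.20 in the deficient corn oil pools and at 8.29 and 8.57 in the supplemented corn oil pools. The number called was 25 without deficient corn oil pool 2, and 3 to 5 without any other array. Within a supply 3 fell in the deficient kidneys (2% of all genes fell there) and 3 in the supplemented kidneys (0.193%), with medians of -0.61 and -1.06. In bulk RNA, fewer dividing cells and less RNA per cell cannot be told apart.

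Matrix and antigen presentation genes were mostly lower, and few passed the test. Of 35 extracellular matrix genes 34 had a negative difference, 5 fell and 0 rose, and the median was -0.50. Fn1, fibronectin, was at 10.91, 11.20, 10.81 and 10.87 in the fish oil pools, against 11.82, 12.39, 11.75 and 11.69 in the corn oil pools and fell by 0.97 ± 0.13 (adjusted p = 0.0192). Lum (lumican), Loxl2 (a collagen cross-linking oxidase) and Postn (periostin) fell by 0.92 ± 0.16 (adjusted p = 0.0403), 0.83 ± 0.15 (adjusted p = 0.0465) and 0.80 ± 0.10 (adjusted p = 0.0164), and Col14a1, a collagen of fibril surfaces, by 0.48 ± 0.08 (adjusted p = 0.0347). Mean levels of the list lay between 9.21 and 9.52 in the fish oil and between 9.83 and 10.01 in the corn oil pools, without overlap and at both choline supplies (medians -0.42 deficient, -0.46 supplemented). Without 1 array 0 to 3 genes were called. Adamts1, a secreted metalloproteinase, was at 9.39, 9.06, 8.42 and 8.76 in the fish oil pools, against 11.54, 11.65, 9.77 and 9.69 in the corn oil pools and fell by 1.76 ± 0.24 (adjusted p = 0.0177), with the deficient corn oil pools the highest.

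In the interferon and antigen presentation list 35 of 36 genes had a negative difference and 2 were called, with a median of -0.44 and medians of -0.51 in the deficient and -0.41 in the supplemented supply. RT1-Da and RT1-Ba, MHC class II chains, fell by 0.85 ± 0.15 (adjusted p = 0.0404) and 0.74 ± 0.13 (adjusted p = 0.0453). Mean levels were 7.93 to 8.46 in the fish oil and 8.46 to 8.73 in the corn oil pools, so that the groups met. Without supplemented fish oil pool 1 the list had 7 calls, and without any other array 0. Of 40 cytokine, chemokine and NF-kB genes 3 fell and 0 rose. Csf1, the macrophage growth factor, fell by 1.16 ± 0.19 (adjusted p = 0.0327), and the membrane-bound chemokines Cxcl16 and Cx3cl1 by 0.96 ± 0.14 (adjusted p = 0.0217) and 0.58 ± 0.10 (adjusted p = 0.0351), and without 1 array 0 to 2 were called. Among 26 macrophage and monocyte genes 24 were negative and 0 were called, with a median of -0.69. Their mean levels lay between 8.04 and 8.14 in the fish oil pools, at 8.80 and 9.24 in the deficient and at 8.28 and 8.36 in the supplemented corn oil pools. Csf1r and Cd68, defining markers of macrophages, had -0.72 ± 0.16 (adjusted p = 0.0869) and -0.97 ± 0.22 (adjusted p = 0.0871), while Cd163 had 0.00 ± 0.13 (adjusted p = 0.998). Most macrophage genes were thus lower under fish oil, as were most matrix, cytokine and antigen presentation genes. The test of the difference between supplies called 0 of 26 macrophage and 2 of 40 cytokine genes, and 0 matrix and antigen presentation genes. List medians within each supply were not tested against each other. The macrophage median was -1.06 in the deficient and -0.29 in the supplemented supply, and the cytokine median -0.98 and -0.10. For matrix the medians were -0.42 and -0.46, and for antigen presentation -0.51 and -0.41. The part of macrophages in the differences of the other lists was not tested.

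Along the nephron few segment genes were called. Of 27 collecting duct genes 4 rose and 0 fell, with a median of 0.20. The median was 0.36 in the deficient supply, with 6 called higher (0.393% of all genes were) and 1 lower, and 0.03 in the supplemented supply, with 0 called (0.152% of all genes were called higher). The 4 pooled calls are known from intercalated cells, the acid-base cells of the duct, a grouping made after their values were seen. Atp6v1g3, another gene of these cells, had 0.48 ± 0.11 (adjusted p = 0.0793) and was not called. Slc26a7, a chloride-bicarbonate exchanger, was at 8.84, 8.97, 9.18 and 8.75 in the fish oil pools, against 7.86, 7.47, 8.05 and 8.15 in the corn oil pools and rose by 1.05 ± 0.14 (adjusted p = 0.0177). Atp6v0d2, a proton pump subunit, rose by 0.81 ± 0.10 (adjusted p = 0.0157) and Hepacam2, an adhesion molecule, by 0.67 ± 0.09 (adjusted p = 0.0157). Slc4a1, the basolateral anion exchanger, rose by 0.75 ± 0.13 (adjusted p = 0.0386). It is also the band 3 protein of red cells and the 1 called gene of 14 in the erythroid list, in which Hbb had -0.34 ± 0.14 (adjusted p = 0.346) and Alas2 -0.39 ± 0.23 (adjusted p = 0.513). Aqp2, the water channel of principal cells, had -0.48 ± 0.13 (adjusted p = 0.131). Without 1 array 0 to 3 of the 4 were called, 0 without either deficient fish oil or either supplemented corn oil pool.

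In the proximal tubule list 2 of 41 genes rose (Slc17a3 and Slc17a1, above), 1 fell, Slc7a7, the basolateral amino acid exchanger subunit, by 0.53 ± 0.08 (adjusted p = 0.0297), and the median was -0.01. Of 12 thick ascending limb genes 1 fell, Cldn19, a tight junction claudin needed for magnesium uptake, by 0.59 ± 0.10 (adjusted p = 0.0351). Trpv5, the apical calcium channel of the distal tubule, was at 9.18, 9.40, 8.76 and 9.37 in the fish oil pools, against 10.41, 10.21, 9.94 and 10.01 in the corn oil pools and fell by 0.97 ± 0.14 (adjusted p = 0.0201). S100g, the calcium-binding calbindin D9k, was at 11.13, 11.03, 10.85 and 10.95 in the fish oil pools, against 10.24, 9.81, 9.83 and 10.12 in the corn oil pools and rose by 0.99 ± 0.12 (adjusted p = 0.0131). Trpv5 and S100g thus went opposite ways, without overlap in either. Calb1, another calbindin and a marker of the distal convoluted tubule, had the sign of Trpv5, at -0.74 ± 0.28 (adjusted p = 0.306), and was not called. Podocyte and endothelial lists had 0 calls of 13 and 20. For tissue next to the kidney, adipocyte, adrenal gland and skeletal muscle lists had 0 called genes of 14, 14 and 13, with medians of 0.09, 0.14 and 0.10. The mean level of the adipocyte list was 8.34 to 9.10 in the fish oil and 8.51 to 9.07 in the corn oil pools.

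**Figure D3:**
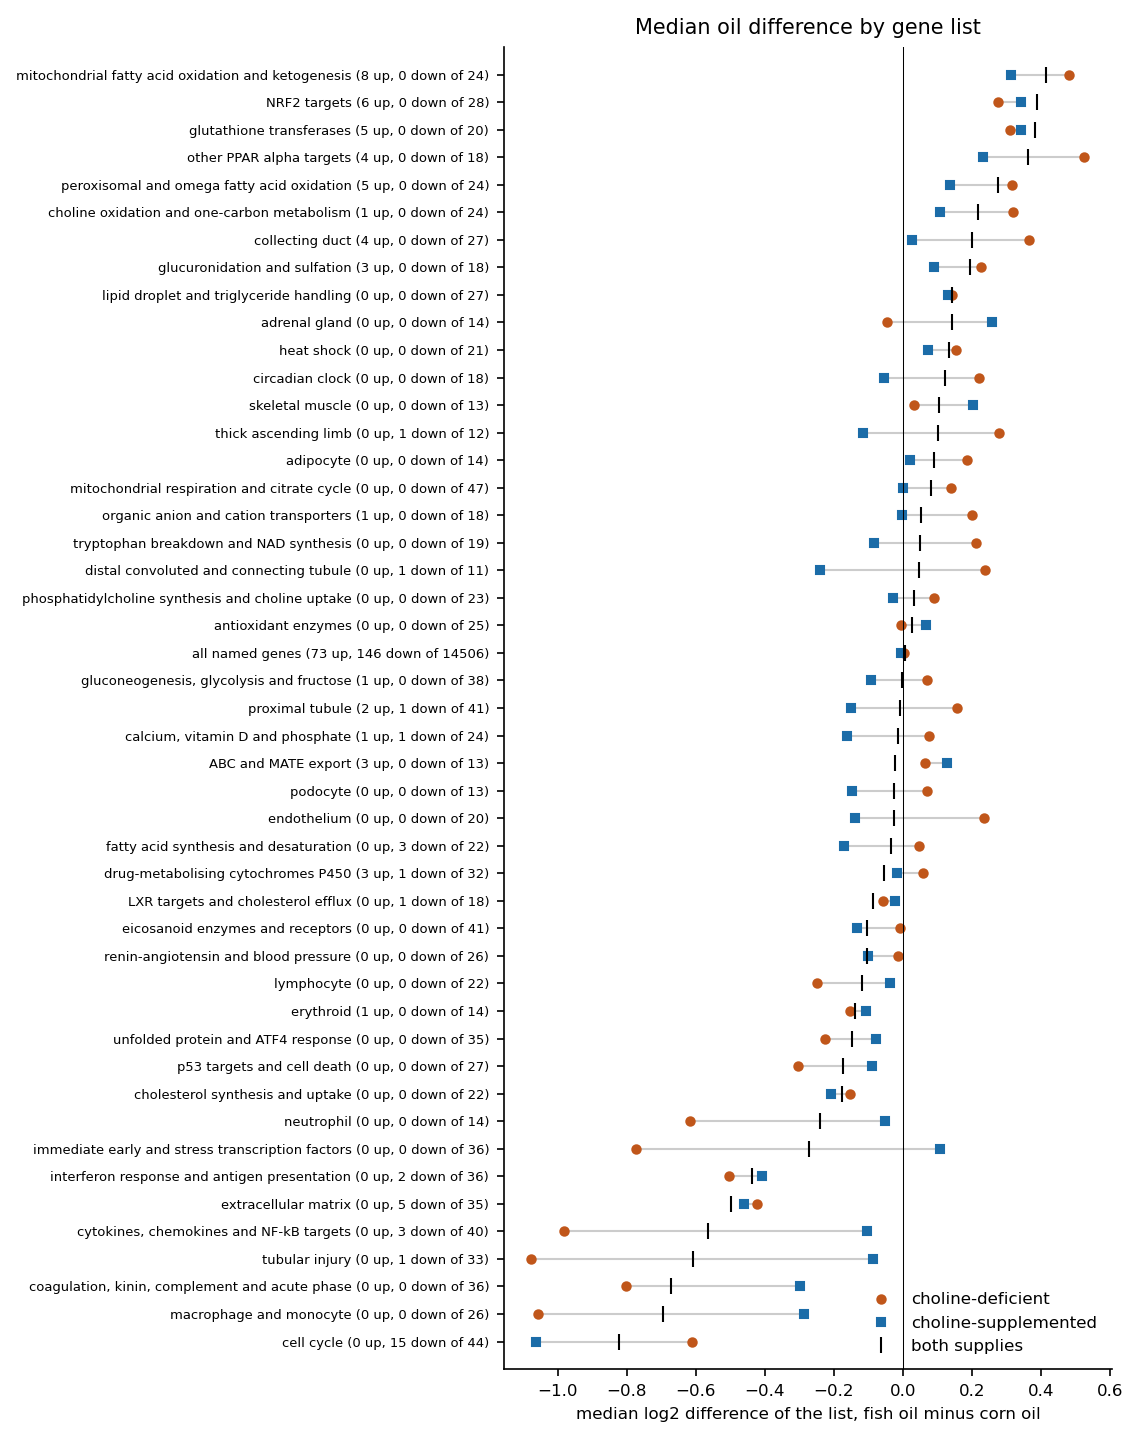
Median log2 difference, fish oil minus corn oil (x axis), of each gene list in the choline-deficient supply (orange circles), the choline-supplemented supply (blue squares) and both (black ticks). Counts after each name are the genes called higher and lower in the pooled fit of those measured. Oxidation, NRF2 and glutathione lists lie to the right, and among the black ticks the cell cycle list lies farthest left, at -0.82. Injury, cytokine and macrophage lists lie left mainly in the deficient supply.

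Few genes of choline use were called. Of 24 choline oxidation and one-carbon genes 1 rose, Aldh1l1, which oxidises formyl-tetrahydrofolate, by 0.91 ± 0.15 (adjusted p = 0.0347), and 17 had a positive difference, with a median of 0.22. In the deficient supply the list's median was 0.32, with 1 gene called lower (2% of all genes were). In the supplemented supply it was 0.11, with 0 called. Bhmt, which remethylates homocysteine with betaine, had 0.41 ± 0.22 (adjusted p = 0.476) and Chdh, choline dehydrogenase, 0.26 ± 0.17 (adjusted p = 0.550). Of 23 genes of phosphatidylcholine synthesis and choline uptake 0 were called in either direction, with a median of 0.03. Pcyt1a, the rate-limiting enzyme of that synthesis, had 0.25 ± 0.10 (adjusted p = 0.330) and Slc44a1, a choline transporter, -0.24 ± 0.11 (adjusted p = 0.391).

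Other genes among the largest differences fall outside the groups above. Csmd1, a large complement-regulating membrane protein, was at 8.81, 8.90, 9.25 and 9.24 in the fish oil pools, against 6.63, 6.35, 6.58 and 6.34 in the corn oil pools and rose by 2.58 ± 0.12 (adjusted p = 0.000129), or 5.96-fold. Its groups lay more than 2 units apart and the pools of each oil lay close together. Cldn17, a claudin that forms anion-selective junctions, rose by 1.46 ± 0.15 (adjusted p = 0.00721). Pfkfb4, which sets fructose 2,6-bisphosphate, was at 10.51, 10.48, 10.77 and 10.55 in the fish oil pools, against 9.67, 8.69, 9.55 and 9.69 in the corn oil pools and rose by 1.18 ± 0.19 (adjusted p = 0.0329). Timd2, whose mouse counterpart is a ferritin receptor, was at 8.39, 8.19, 8.07 and 8.50 in the fish oil pools, against 10.24, 10.92, 9.51 and 9.20 in the corn oil pools and fell by 1.68 ± 0.27 (adjusted p = 0.0293). Tff3, a trefoil peptide of the tubule and the 1 called gene of 33 in the tubular injury list, was at 10.28, 9.63, 10.04 and 9.58 in the fish oil pools, against 11.90, 11.68, 10.77 and 11.07 in the corn oil pools and fell by 1.47 ± 0.21 (adjusted p = 0.0195). Lypd8l1 fell by 1.48 ± 0.24 (adjusted p = 0.0299) and Paep by 1.29 ± 0.23 (adjusted p = 0.0429). Both were at low levels. Lypd8l1 read 5.68, 5.87, 5.76 and 5.72 in the fish oil pools, against 7.63, 8.09, 6.67 and 6.55 in the corn oil pools. Paep read 4.84, 4.60, 4.32 and 4.63, against 5.69, 5.23, 6.19 and 6.46, below the array median in every pool. No role is given here for these 2 genes.

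The pooled difference averages the 2 choline supplies, and these were then fitted apart, with 4 group means on the same 8 arrays. The deficient supply had 440 called probe sets (1.51%), 82 higher (0.281%) and 358 lower (1.23%), and the supplemented supply 76 (0.26%), 28 higher (0.0958%) and 48 lower (0.164%). Without 1 array the deficient supply had 45 to 711 calls, the lowest without deficient fish oil pool 2 and the highest without deficient corn oil pool 1. The supplemented supply had 2 to 5 calls, 0 of them lower, without any one of its own 4 arrays, 35 without either deficient fish oil pool and 160 without either deficient corn oil pool. Called in both were 30, of which 29 had the same direction. The exception was Igfbp1, an IGF-binding protein of fasting and injury, at 11.78, 11.29, 11.40 and 11.47 in the fish oil pools, against 13.29, 12.88, 9.95 and 10.10 in the corn oil pools. The fish oil pools lay between the 2 corn oil levels, so that its difference was -1.56 ± 0.20 (adjusted p = 0.0158) in the deficient and 1.41 ± 0.20 (adjusted p = 0.0484) in the supplemented supply. Of the 440 called in the deficient supply 347 (78.9%) had the same sign in the supplemented supply, and of the 76 called there 65 (85.5%) had the same sign in the deficient supply. These shares come from separate arrays, against 52.9% of all probe sets with the same sign and a correlation of 0.245 across these 29214 probe sets, which are not independent. All 329 pooled calls had the same sign in both supplies, which the pooled fit favours, since a disagreement between the supplies enters its residual spread.

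Ugt2b7, Csmd1, Nqo1, Pir, Abcc2, Creb3l3, Gsta3 and Scd were among those called in both supplies in the fit of 4 group means to all 8 arrays. Their differences in the deficient and supplemented supply were 4.94 and 5.22 for Ugt2b7, 2.37 and 2.78 for Csmd1, 2.00 and 2.29 for Pir, 1.56 and 2.44 for Abcc2, and -1.96 and -2.85 for Scd. For none of these did the test of the difference between supplies pass, with adjusted p between 0.256 (Abcc2) and 0.92 (Gsta3). A p that misses the threshold does not show that the supplies respond alike. Fitted on the supplemented arrays alone, 4 of the 73 called named probe sets kept their call, and on the deficient arrays alone likewise 4.

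**Figure D4:**
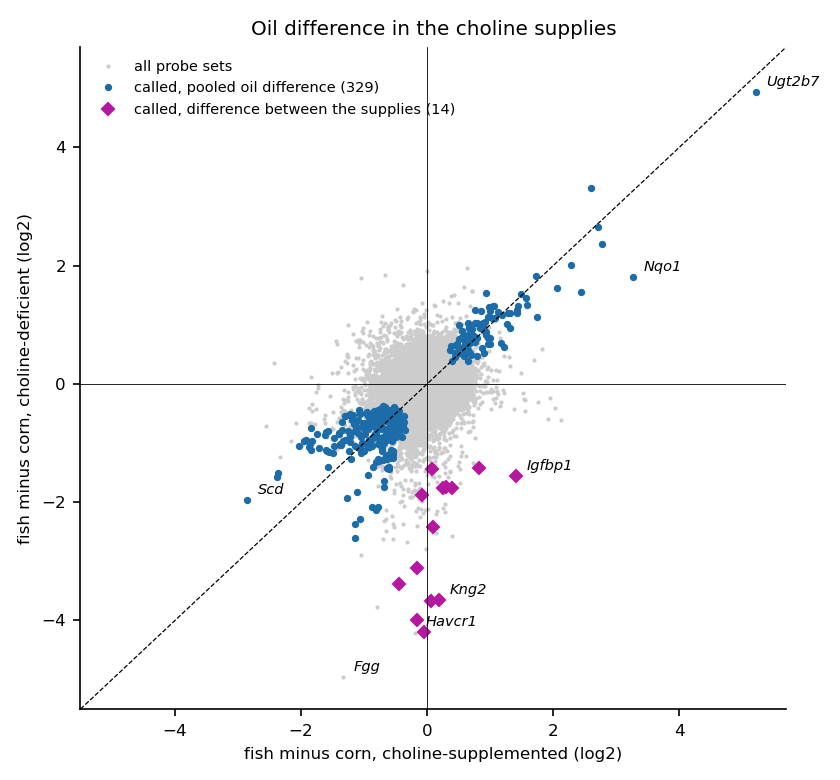
Log2 difference, fish oil minus corn oil, in the choline-supplemented (x axis) and choline-deficient (y axis) kidneys for every probe set. Blue points are the 329 called in the pooled fit, all with the same sign in both supplies, and the dashed line marks equality. Magenta diamonds are the 14 called for the difference between supplies, all below -1 on the y axis.

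The test of the difference between the supplies called 14 probe sets (0.0479%), all with a lower oil difference in the deficient supply, and 3063 had an unadjusted p under 0.05. None of the 14 was among the 329 pooled calls. These calls depend on single arrays. limma called 0 with the replicate number as a block, and 0 without deficient fish oil pool 2 or any one of the 4 supplemented pools, where 1729 to 3497 had an unadjusted p under 0.05 (2973 with the block). It called 5 without deficient fish oil pool 1, 14 without deficient corn oil pool 2, and 79 (23 higher and 56 lower) without deficient corn oil pool 1. Kng2, a kininogen and precursor of kinins, was at 7.67, 7.26, 7.06 and 7.44 in the fish oil pools, against 11.35, 10.90, 7.10 and 7.03 in the corn oil pools. The 2 deficient corn oil pools stood more than 3 units above every other pool, and the other 6 were alike. Its difference between supplies was -3.85 ± 0.30 (adjusted p = 0.0262). Olr1, a receptor for oxidised lipoprotein, read 6.50, 6.17, 6.17 and 6.06 in the fish oil pools, against 9.94, 10.71, 6.27 and 6.29 in the corn oil pools, with -3.82 ± 0.34 (adjusted p = 0.0262). Atf3, a stress-induced transcription factor, had -3.74 ± 0.35 (adjusted p = 0.0262), Fga, the fibrinogen alpha chain, -2.95 ± 0.22 (adjusted p = 0.0262) and Kng1, the other kininogen, -2.95 ± 0.27 (adjusted p = 0.0262). In Igfbp1, Socs3, Myc, Tnfrsf12a, Prss22, Npy and Ubd, also called, the difference between supplies ran from -2.96 (Igfbp1) to -1.79 (Ubd). The genes named here are the 12 largest of 13 called probe sets with 1 symbol.

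Injury genes differed by oil in the deficient supply, and of the injury list Tff3 alone was called in the pooled comparison. Havcr1, kidney injury molecule 1 of damaged proximal tubules, was at 9.30, 7.22, 6.49 and 6.37 in the fish oil pools, against 11.82, 13.11, 6.67 and 6.56 in the corn oil pools. The deficient corn oil pools were far above all others, with deficient fish oil pool 1 next. Its pooled difference was -2.20 ± 0.81 (adjusted p = 0.292), against -4.20 ± 0.64 (adjusted p = 0.0262) in the deficient and -0.19 ± 0.64 (adjusted p = 0.920) in the supplemented supply, and the difference between supplies had -4.02 ± 0.90 (adjusted p = 0.259). Lcn2, an iron-siderophore binding protein of injured tubules, had -1.39 ± 0.36 (adjusted p = 0.126) pooled and -2.23 ± 0.32 (adjusted p = 0.0224) in the deficient supply. Fgg, the fibrinogen gamma chain, had the largest pooled difference below 0 of any named gene that was not called, -3.15 ± 0.66 (adjusted p = 0.0715). Within the deficient supply it was -4.96 ± 0.35 (adjusted p = 0.00196), and Fgb, the beta chain, -3.77 ± 0.36 (adjusted p = 0.00534). Mmp9, a gelatinase of inflammatory cells and tubules, had -2.08 ± 0.21 (adjusted p = 0.0235) in the supplemented and -0.65 ± 0.21 (adjusted p = 0.222) in the deficient supply. Its difference between supplies, 1.43 ± 0.29 (adjusted p = 0.212), did not pass the test. Nor did those of Lcn2 (adjusted p = 0.339), Fgg (adjusted p = 0.0884) and Fgb (adjusted p = 0.143). The tubular injury list had 13 of 33 genes called lower in the deficient supply (2% of all genes were called lower there), 0 lower and 1 higher in the supplemented supply, and 1 lower in the pooled fit. Immediate early genes had 12 of 36, cytokines 18 of 40, macrophage genes 11 of 26 and coagulation, kinin and complement genes 11 of 36 called lower in the deficient supply, where 1 of the last list was higher, and none of these lists had a call in the supplemented supply. Their medians there were 0.11, -0.10, -0.29 and -0.30, against -0.77, -0.98, -1.06 and -0.80 in the deficient supply. Few of these genes passed the test of the difference between supplies. It called 3 of 33 tubular injury, 2 of 36 immediate early and 2 of 40 cytokine genes. Of the macrophage genes it called 0 of 26, of the coagulation, kinin and complement genes 3 of 36, and of all named genes 13 of 14506. With 4 group means in place of the covariate, the pooled oil contrast had 702 calls, and called injury genes numbered 12, since differences between the supplies then leave the residual spread.

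**Figure D5:**
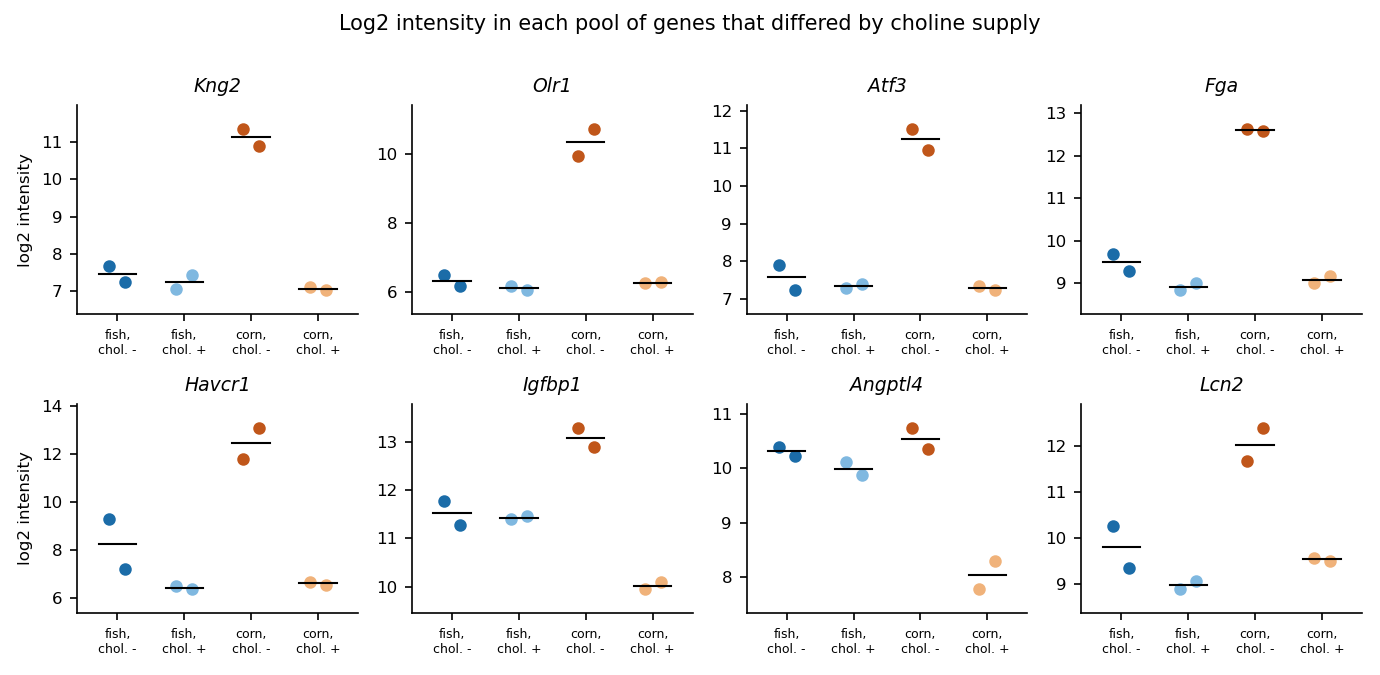
Log2 intensity (y axis, own scale per panel) in each pool of 8 genes, with the fish oil groups left of the corn oil groups, points for pools and lines for the mean of 2. In Kng2, Olr1, Atf3, Fga, Havcr1 and Lcn2 the deficient corn oil pools stand above the rest. In Igfbp1 and Angptl4 the supplemented corn oil pools stand below the rest, and in Igfbp1 the deficient corn oil pools also stand above it.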

How the data were processed

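RNA of 10 pools of rat kidney was hybridised to expression arrays. The deposited values are log2 intensities for single probe sets, which the authors obtained by RMA, per the submitters' processing notes. Which software ran it, and on which probe set definition and genome build, is not given in the sources used here. Values were used as deposited. Of 29214 probe sets 15310 had 1 gene symbol in the platform annotation, for 14506 genes, and the rest stayed unnamed.

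Oil (fish minus corn) and choline supply were fitted on 8 arrays in limma 3.58.1 (lmFit, eBayes, R 4.3.3), with Benjamini-Hochberg adjustment over all probe sets. Oil differences within a supply, and their difference, came from 4 group means. A gene in a list took the probe set of highest mean intensity. The 46 lists were written from general knowledge, and lists, named genes and the comparison were chosen with earlier results of these data known. Named were the 12 largest called rises and falls, up to 4 called members per list, the 12 largest of the interaction, the 6 largest rises and falls within a supply, and 20 fixed genes. Further list members were chosen after their values were seen. Promoter windows come from RefSeq (GRCr8), and motifs were searched on both strands. The fit was tested on simulated data. Alternatives were other scalings, filters, priors and models, the replicate number as a block, and leaving out each array. Python 3.11.15, pandas 2.3.3, numpy 2.4.6 and matplotlib 3.10.9 made tables and figures.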

Additional observations from a re-analysis of the deposited data

Results flagged for a closer look

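In 9 of 198 groups of 4 pools examined among the named genes, 1 pool lay far from the other 3 by Dixon's criterion at the 95% level, which chance gives in about 1 group in 20. In the fish oil pools this was Atp6v0d2, lowest in deficient pool 1 at 10.64, with the others between 10.87 and 10.91. Among the corn oil pools, deficient pool 2 was the lowest for Ephx1 at 12.06 (others 12.51 to 12.57), Aldh1l1 at 9.84 (others 10.54 to 10.68), Pfkfb4 at 8.69 (others 9.55 to 9.69) and Gclc at 13.47 (others 13.79 to 13.85). Deficient corn oil pool 1 was the highest for Decr1 at 10.74 (others 10.34 to 10.36) and Cldn19 at 10.42 (others 10.10 to 10.12). Supplemented corn oil pool 1 was the highest for Pclaf at 9.31 (others 8.47 to 8.60) and the lowest for Cpt1a at 11.56 (others 11.79 to 11.83).

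The oil difference was lower in the deficient than in the supplemented supply at 12 named genes that passed limma's test of that difference. All such calls were lost with the replicate number as a block and without deficient fish oil pool 2 or any one of the 4 supplemented pools. The difference between supplies was -3.85 ± 0.30 (adjusted p = 0.0262) for Kng2, -3.82 ± 0.34 (adjusted p = 0.0262) for Olr1, -3.74 ± 0.35 (adjusted p = 0.0262) for Atf3 and -2.96 ± 0.28 (adjusted p = 0.0262) for Igfbp1. It was -2.95 ± 0.27 (adjusted p = 0.0262) for Kng1, -2.95 ± 0.22 (adjusted p = 0.0262) for Fga, -2.51 ± 0.24 (adjusted p = 0.0316) for Socs3 and -2.24 ± 0.24 (adjusted p = 0.0492) for Myc. It was -2.16 ± 0.23 (adjusted p = 0.0483) for Tnfrsf12a, -2.06 ± 0.18 (adjusted p = 0.0262) for Prss22, -2.02 ± 0.19 (adjusted p = 0.0262) for Npy and -1.79 ± 0.18 (adjusted p = 0.0360) for Ubd.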

How the results depend on the processing

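None of the 73 named probe sets called in the pooled comparison changed the sign of its oil difference under any alternative run, and 11 uncalled ones did, in 17 instances. On the supplemented arrays alone the difference was 0.19 for Kng2, 0.058 for Atf3, 1.41 for Igfbp1, 0.095 for Socs3, 0.82 for Myc, 0.40 for Tnfrsf12a, 0.31 for Prss22, 0.25 for Npy and -0.52 for Ptgs2. On the deficient arrays alone it was -0.23 for Angptl4. Without 1 array it ran from -0.40 to 0.32 for Igfbp1, above 0 without any one deficient array. It ran from -0.58 to 0.0015 for Myc, from -0.0044 to 0.14 for Fads2 and from -0.087 to 0.32 for Ptgs2, each turning without deficient corn oil pool 2 alone. Called probe sets in the pooled comparison (329) numbered 702 with 4 group means, 656 with all 10 arrays, 5 on the supplemented and 25 on the deficient arrays alone, and 61 to 366 without 1 array. The number was 249 to 451 under the other alternatives. The 5 calls of the supplemented arrays alone were higher and none was lower, against 3 higher and 22 lower of the 25. In the deficient supply (440) the number was 683 with the 50th percentile filter, 662 with a trend and robust prior and 45 to 711 without 1 array. In the supplemented supply (76) it was 164 and 145 with the 25th and 50th percentile filters, 148 with the trend and robust prior and 2 to 160 without 1 array. For the difference between supplies (14) it was 23 with cyclic loess, 30 and 45 with the 25th and 50th percentile filters, 40 with the trend and robust prior, 30 with all 10 arrays and 0 to 79 without 1 array. It was 0 without deficient fish oil pool 2, either supplemented fish oil pool or either supplemented corn oil pool, and 79 without deficient corn oil pool 1. Median centring gave 2694 in place of 2499 non-overlapping probe sets, and the larger side changed. Fish oil pools lay wholly above at 1594 in place of 1052 and wholly below at 1100 in place of 1447. Where an array was left out, the lone pool of its group was assumed to vary like the others. The cause of these shifts was not tested.

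Same-numbered pools did not deviate together (correlations -0.077 to 0.118 over 6 group pairs), so the numbers are not shown to pair the pools. With the replicate number as a block, 249, 376, 76 and 0 probe sets were called in the pooled, deficient, supplemented and between-supply tests. Leaving out deficient corn oil pool 2, chosen after seeing the data, gave 25 in place of 15 called cell cycle genes, 3 in place of 5 matrix genes and 1 in place of 4 P450 genes.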

Other observations

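The 2 necrotic corn oil pools, which entered no comparison above, can be set beside the genes that followed the oil. Ugt2b7 was at 5.62 and 5.56 and Csmd1 at 6.54 and 6.16 there, within the range of the other corn oil pools or below it. Nqo1 was at 10.05 and 9.35 and Gstp1 at 13.31 and 13.02, above the other corn oil pools and below the fish oil pools. Rrm2 was at 10.62 in necrotic pool 1 and higher in pool 2, above every other pool, while Scd, at 9.42 and 9.30, lay between the fish oil and the other corn oil pools. Ehhadh was at 10.65 and 10.17 and Acaa1b at 9.75 and 9.25, below every other pool.

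Both of the following lists had no pooled call, and most of their genes had the same sign in at least the deficient supply or the pooled fit. In mitochondrial respiration and the citrate cycle 0 of 47 genes were called, with 44 positive differences in the deficient and 23 in the supplemented supply. In the unfolded protein and ATF4 list 0 of 35 were called pooled and 30 were negative, and 4 were lower in the deficient supply.

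Of the 98 called probe sets without a single gene symbol, probe set 10771957 had the largest difference. It read 8.67, 8.82, 10.34 and 9.01 in the fish oil pools, against 6.33, 5.84, 7.07 and 6.85 in the corn oil pools, without overlap, and rose by 2.69 ± 0.26 (adjusted p = 0.00613). Probe set 10754876 had the largest fall among them, at -1.88 ± 0.28 (adjusted p = 0.0249).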
